A study of Mus musculus with 22 samples.

Results

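Genes of mitosis and the cell cycle were followed in whole white fat of mice that carried transplanted bone marrow. The list of 38 genes was chosen with earlier results of these data known. It was matched by symbol to the array annotation, and 35 of the genes had a feature among the 19337 genes with a symbol. Ccnb1, Mcm7 and Foxm1 had none. Of the 35, 25 act in mitosis and 10 in DNA replication or the step into it. Whole-transcript arrays of 1 colour measured 22 samples from male C57BL/6J mice, 12 of epididymal fat (epiWAT) and 10 of inguinal subcutaneous fat (ingWAT). All mice were bone marrow chimeras, given 6 weeks to rebuild their blood cells and then 14 weeks of a diet with 60% of its calories from fat. Marrow was wild type (WT), Gipr-/-, which lacks the receptor of the gut hormone GIP, or Gipr-/-S100a9-/-, which also lacks a subunit of the alarmin calprotectin and is called double-knockout marrow here. EpiWAT had 4 arrays for each kind of marrow, and ingWAT had 4 for WT but 3 each for the other 2 kinds. WT and Gipr-/- marrow went into WT recipients. The recipients of double-knockout marrow, the ages of the mice and the share of host blood cells left are not stated in these sources. The genotypes apply to marrow-derived cells, while fat cells and stroma belong to the recipient.

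Cells that divide switch these genes on in order. E2F factors first turn on the genes of DNA synthesis, such as those of the sliding clamp PCNA and of the MCM helicase ring. The mitotic genes follow, held silent in resting cells by the DREAM complex and later activated by MYBL2 and FOXM1 through CHR elements near their starts. Many of these starts also carry CCAAT boxes. In obese fat, macrophages, adipocyte progenitors and endothelial cells are known to divide, whereas mature fat cells rarely do. Testis germ cells and the follicles of lymph nodes also divide and use the same machinery, and epididymal fat lies against the male tract while inguinal fat holds a lymph node.

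The promoters are shown because they carry the sequence elements by which the mitotic and the replication genes are known to be timed. RefSeq windows of build GRCm38.p6, from 250 bases before to 50 after the start, were at hand for 31 of the 38 listed genes. A gene was counted when any of its windows held the letters. A CHR element, searched as TTTGAA or TTCGAA on both strands, lay in 17 of 22 mitotic genes (77.3%). It lay in 2 of 9 replication genes (22.2%). Among all 27025 genes with a window the share was 21.7%. An E2F site was searched as TTTCCCGC, TTTCGCGC, TTTGCCGC or TTTGGCGC on both strands. It lay in 4 of 9 replication genes (44.4%), in 1 of 22 mitotic genes (4.5%) and in 2.6% of all genes. CCAAT on either strand lay in 77.3% of mitotic, 77.8% of replication and 41.1% of all genes. These are matches of letters. Matches of TTTGGCGC and its reverse complement with those of other E2F forms can overlap, and no binding was measured. Before the start alone, CHR elements lay in 35.5% of the listed genes, both classes together, and in 19.6% of all genes. In the mitotic genes Anln, Aurka, Bub1, Cenpf, Kif23, Ndc80, Plk1 and Spc25 they lay only after the start. The 160 bases before the start follow for 3 mitotic genes (Cdc20, the activator of the ubiquitin ligase APC/C; Kif11, a spindle motor; Top2a, which untangles sister DNA) and 3 replication genes (Mcm6 and Mcm5 of the helicase ring, and Pcna). They are written 5′ to 3′ on the gene's strand, with CHR, CCAAT and E2F letters in capitals in either orientation.
Cdc20, chr4:118437344-118437503, minus strand: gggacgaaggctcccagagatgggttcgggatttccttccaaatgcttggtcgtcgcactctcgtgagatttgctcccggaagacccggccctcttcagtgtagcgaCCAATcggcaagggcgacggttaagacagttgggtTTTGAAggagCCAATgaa
Kif11, chr19:37376222-37376381, plus strand: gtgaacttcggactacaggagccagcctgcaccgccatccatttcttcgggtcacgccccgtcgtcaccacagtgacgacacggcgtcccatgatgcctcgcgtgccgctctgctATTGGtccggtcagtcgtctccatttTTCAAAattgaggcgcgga
Top2a, chr11:99024190-99024349, minus strand: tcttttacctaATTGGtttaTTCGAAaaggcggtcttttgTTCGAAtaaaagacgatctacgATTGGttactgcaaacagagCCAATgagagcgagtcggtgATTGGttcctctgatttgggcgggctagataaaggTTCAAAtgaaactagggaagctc
Mcm6, chr1:128359706-128359865, minus strand: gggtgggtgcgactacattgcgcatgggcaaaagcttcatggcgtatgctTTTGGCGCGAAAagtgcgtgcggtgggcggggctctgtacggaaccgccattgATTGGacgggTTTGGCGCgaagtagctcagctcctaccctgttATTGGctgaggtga
Mcm5, chr8:75109349-75109508, plus strand: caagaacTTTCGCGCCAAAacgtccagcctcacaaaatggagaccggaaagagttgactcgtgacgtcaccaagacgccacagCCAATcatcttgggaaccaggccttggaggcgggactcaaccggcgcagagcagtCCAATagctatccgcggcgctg
Pcna, chr2:132253181-132253340, minus strand: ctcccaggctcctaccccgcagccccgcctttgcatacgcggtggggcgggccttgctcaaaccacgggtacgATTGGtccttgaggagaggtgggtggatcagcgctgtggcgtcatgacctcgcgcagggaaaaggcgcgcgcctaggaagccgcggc
In these stretches the 3 mitotic genes held both CHR and CCAAT letters and no E2F match. Mcm6 and Mcm5 held E2F and CCAAT letters and no CHR match, and Pcna held CCAAT alone. The genes shown were picked by hand as examples and do not stand for every member of their class. Among the mitotic genes, Birc5, Nuf2 and Nusap1 held no CHR, CCAAT or E2F letters in their windows.

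Several arrays stood apart in genes of neighbouring tissue, and many of the values that rest on them are given with and without them. In epiWAT the sperm protamine gene Prm1 was at 10.67, 9.53, 5.94 and 6.05 (log2 values) with WT marrow, at 16.05, 6.35, 6.32 and 8.31 with Gipr-/- marrow and at 8.05, 5.84, 8.15 and 5.75 with double-knockout marrow. The Gipr-/- array 1 was thus far above the other 11. All 26 measured genes of a male germ cell list lay above their epiWAT mean in that array, with a median excess of 5.34. The next highest were 1.09 in WT 2 and 0.36 in double-knockout 1, which also had the highest Gpx5, an epididymis gene, at 18.94. Median levels of the germ cell list ran in epiWAT from 4.25 to 6.93 with WT, from 4.23 to 11.04 with Gipr-/- and from 4.02 to 6.02 with double-knockout marrow, and from 3.95 to 4.76 in ingWAT. In ingWAT the follicle chemokine gene Cxcl13 was at 15.97 and 15.53 in double-knockout arrays 1 and 3, at 10.86 in array 2, and between 8.27 and 10.76 in the other 7 arrays. A list of 7 measured lymph node genes had a median excess of 3.75 and 4.61 in arrays 1 and 3 and of -0.90 in array 2. B cell genes (10 measured) stood at 3.53, -1.18 and 3.68 in these arrays, and T cell genes (10 measured) at 3.56, -1.08 and 4.05. The adiponectin gene Adipoq was bright in every sample, between 17.996 and 19.40. A list of 11 measured adipocyte genes varied more. Its median level in epiWAT ran from 17.52 to 18.46 with WT and from 16.84 to 18.45 with Gipr-/- marrow. With double-knockout marrow it ran from 15.44 to 18.53, and the lowest array there had a median of -1.39 from the epiWAT mean. Gipr (4.02 to 6.10) and S100a9 (4.56 to 6.98) did not pass the threshold between kinds of marrow in either depot, and probes outside a deletion check no label.

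The cell cycle genes were measured at moderate brightness. Their means over the 22 arrays ran from 3.96 for Cdk1, the kinase that drives mitosis, to 13.03 for Pcna, with a median of 6.34 against 6.33 over all genes. Brightness also depends on the probe, so genes are compared only with themselves. Tests left out the dimmest 25% of genes in each fit, which removed Cdk1 and Cdc20 in epiWAT and Cdk1, Cdc20 and Cenpf in ingWAT and between depots. Arrays of the same group scattered more for these genes than for the genome in epiWAT, with a median SD within groups of 0.52 against 0.42 over all genes. In ingWAT the medians were 0.45 and 0.42. The mitotic checkpoint kinase gene Bub1 (0.98), the cyclin gene Ccnb2 (0.81) and Plk1 (0.80) scattered most in epiWAT, and Pcna (0.23) and the thymidylate synthase gene Tyms (0.25) least. In ingWAT, Bub1b (0.96) and Mki67 (0.86) scattered most.

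**Figure D1:**
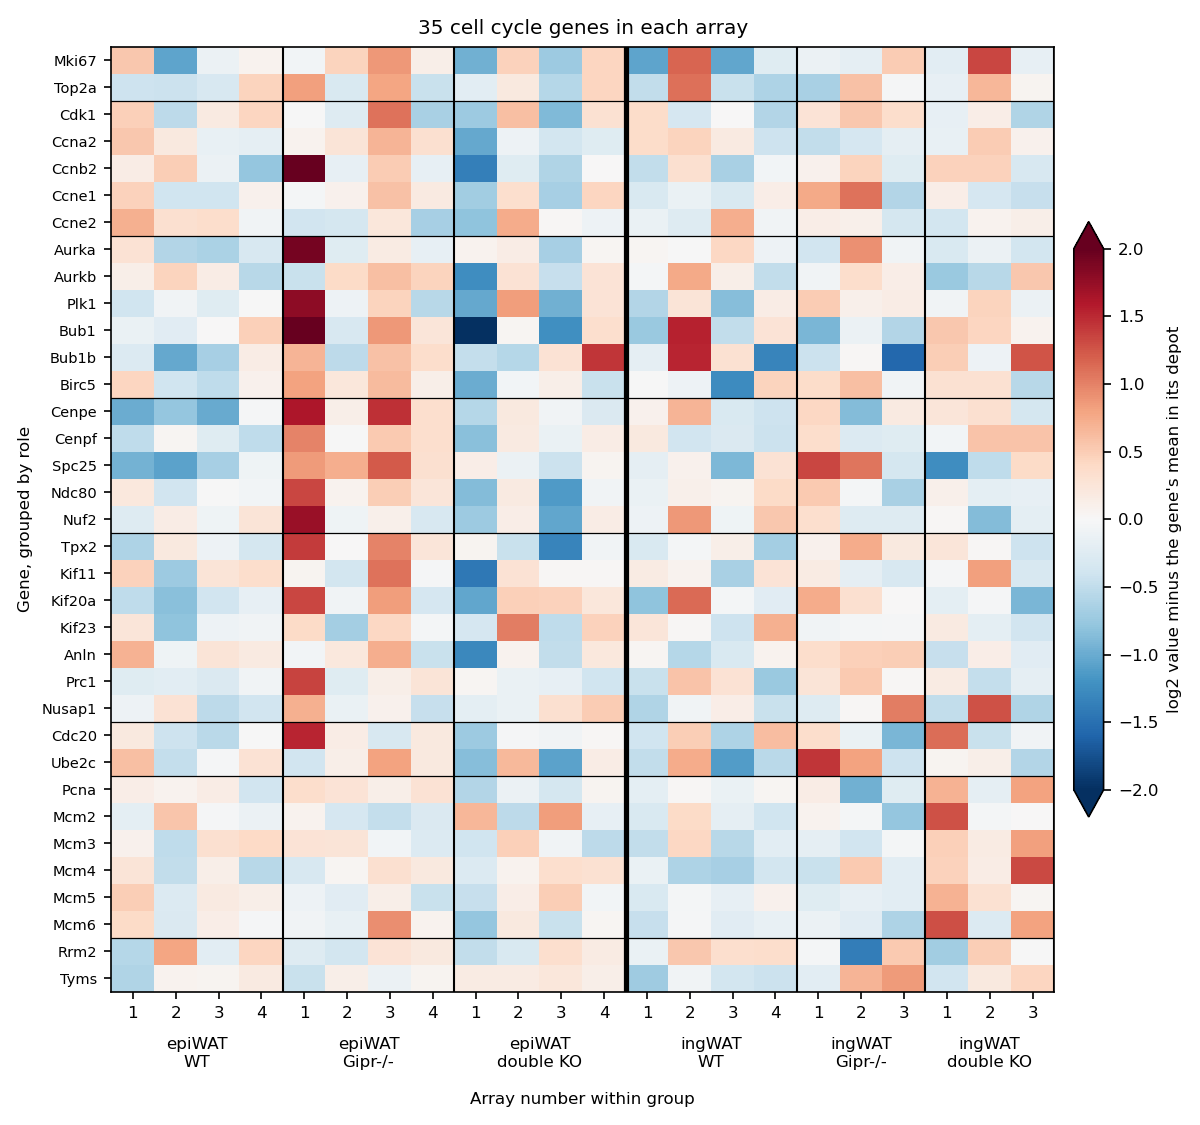
Heat map of the 35 measured cell cycle genes (vertical axis, by role) in the 22 arrays (horizontal axis, by depot and marrow). Colour gives each gene's log2 distance from its own mean in the depot. In epiWAT the Gipr-/- arrays 1 and 3 are mostly above the mean for mitotic genes and double-knockout arrays 1 and 3 mostly below it.

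No cell cycle gene passed the threshold (limma, Benjamini-Hochberg adjusted p under 0.05) in any of the 6 comparisons of marrow, the 3 comparisons of depots or the 3 tests of whether a marrow difference itself differed between depots. The values below are therefore differences that did not pass, given with the share of all 14502 tested genes that met the same criterion. The labels do not say outright that the samples are separate mice, so the p-values weigh differences against a spread that may in part be technical. In whole tissue, fewer cells of a type and less RNA per cell cannot be told apart.

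In epiWAT, mitotic genes stood higher with Gipr-/- than with WT marrow in most cases, and replication genes lay around 0. The median log2 difference was 0.57 over 23 tested mitotic genes, 22 of them positive, and -0.02 over 10 replication genes, 4 of them positive. Over all genes the median was -0.02, and 48.2% of genes were positive. None passed (lowest limma adjusted p = 0.248, and 0% of all genes passed). At an unadjusted p under 0.05, 4 of 33 members were higher and 0 lower (background 3.34% and 3.92% of genes). In 2 members every Gipr-/- array lay above every WT array and in 0 below (background 2.29% and 2.75%). The mitotic median was 0.27 without Gipr-/- array 1 and 0.24 without that array and WT 2, the 2 arrays highest in germ cell genes in their groups. The excess of the mitotic genes over their epiWAT mean was 0.85, -0.07, 0.64 and 0.12 in the 4 Gipr-/- arrays and 0.12, -0.39, -0.15 and -0.03 in the WT arrays. Arrays 1 and 3 of Gipr-/- marrow were thus the high ones. They stood at 5.34 and -1.23 in the germ cell list, and at 0.24 and 1.48 in a macrophage list of 11 measured genes. B cell genes were at 0.48, 1.52, -0.31 and 0.55 in the 4 Gipr-/- arrays and between -0.42 and -0.14 in the WT arrays. Their differences were positive in 7 of 7 tested genes (median 1.4998, 3 at an unadjusted p under 0.05), and those of the macrophage genes in 10 of 11 (median 0.93, 6 at that p). Their part in the mitotic values was not tested.

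The outer kinetochore, which ties chromosomes to spindle microtubules, held the members with the smallest p. Spc25, a subunit of the NDC80 complex that binds microtubules, was at 6.08, 5.95, 6.36 and 6.93 with WT marrow and at 7.87, 7.75, 8.25 and 7.34 with Gipr-/- marrow. The groups did not overlap, and all 4 Gipr-/- arrays were high. The difference was 1.47 (SE 0.27, limma adjusted p = 0.248), and 1.45 without Gipr-/- array 1. Cenpe, a kinetochore motor, was at 5.43, 5.66, 5.42 and 6.40 with WT marrow and at 8.04, 6.55, 7.89 and 6.77 with Gipr-/- marrow. Again the groups did not overlap, with arrays 1 and 3 the highest. It differed by 1.59 (SE 0.37, limma adjusted p = 0.387), and by 1.34 without array 1. Cenpf, another kinetochore protein, differed by 0.76, and Ndc80 and Nuf2, the other arms of the NDC80 complex, by 0.59 and 0.34. Without array 1, Nuf2 was at -0.12. All 5 kinetochore genes were thus on the positive side, and 3 of them had an unadjusted p under 0.05.

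The mitotic kinases and the chromosomal passenger survivin (Birc5) were also on the positive side in 6 of 6, with a median of 0.65. In 3 of them, Plk1, Aurka and Bub1, this rested mostly on Gipr-/- array 1. Plk1, a kinase of spindle assembly, was at 6.35, 6.69, 6.50 and 6.74 with WT and at 8.54, 6.64, 7.20 and 6.19 with Gipr-/- marrow. Aurka, the spindle pole kinase, was at 6.06, 5.18, 5.13 and 5.44 with WT and at 7.68, 5.53, 5.94 and 5.60 with Gipr-/- marrow. In both genes array 1 stood alone and the groups overlapped. Without it the difference of Plk1 went from 0.58 to 0.11 and that of Aurka from 0.73 to 0.24. Bub1 went from 0.74 to 0.24, whereas Bub1b (0.73 to 0.59), Birc5 (0.54 to 0.42) and Aurkb (0.20 to 0.43) kept larger values. The same step took the mitotic cyclin gene Ccnb2 from 0.67 to 0.12. Ccnb2 was at 8.18, 8.52, 7.92 and 7.26 with WT and at 10.28, 7.86, 8.54 and 7.87 with Gipr-/- marrow. Array 1 held the highest value of the 12 epiWAT arrays in 15 of 25 mitotic genes and in 1 of 10 replication genes (Pcna). Array 3, with germ cell genes below their mean, held the highest in 8 mitotic genes, among them Mki67, Spc25, Kif11 and Anln.

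Proliferation markers and spindle genes varied in size. Mki67, which coats mitotic chromosomes and marks cycling cells, was at 9.74, 8.14, 9.08 and 9.27 with WT and at 9.14, 9.64, 10.07 and 9.31 with Gipr-/- marrow. The groups overlapped, and the difference was 0.48 (SE 0.41, limma adjusted p = 0.865). Top2a differed by 0.40 (SE 0.36). Among spindle and cytokinesis genes, Kif20a was at 0.91. The spindle assembly factor Tpx2 was at 0.87, with an unadjusted p under 0.05. Prc1, which bundles the central spindle, was at 0.57. Gipr-/- array 1 held the highest epiWAT value of Top2a, Kif20a, Tpx2 and Prc1, whose differences are given here with it. Tpx2 ran from 0.63 to 1.09 over the alternative settings, which include leaving that array out. The motors Kif23 and Kif11 and the cytokinesis scaffold Anln were at 0.20, 0.10 and -0.15. Ube2c, the ubiquitin carrier of the APC/C, was at 0.08. Replication genes lay between -0.63 for the cyclin gene Ccne2 and 0.27 for Ccne1, both of which push cells into S phase, with Mcm2, Mcm3, Mcm4, Mcm5 and Mcm6 between -0.31 and 0.23.

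**Figure D2:**
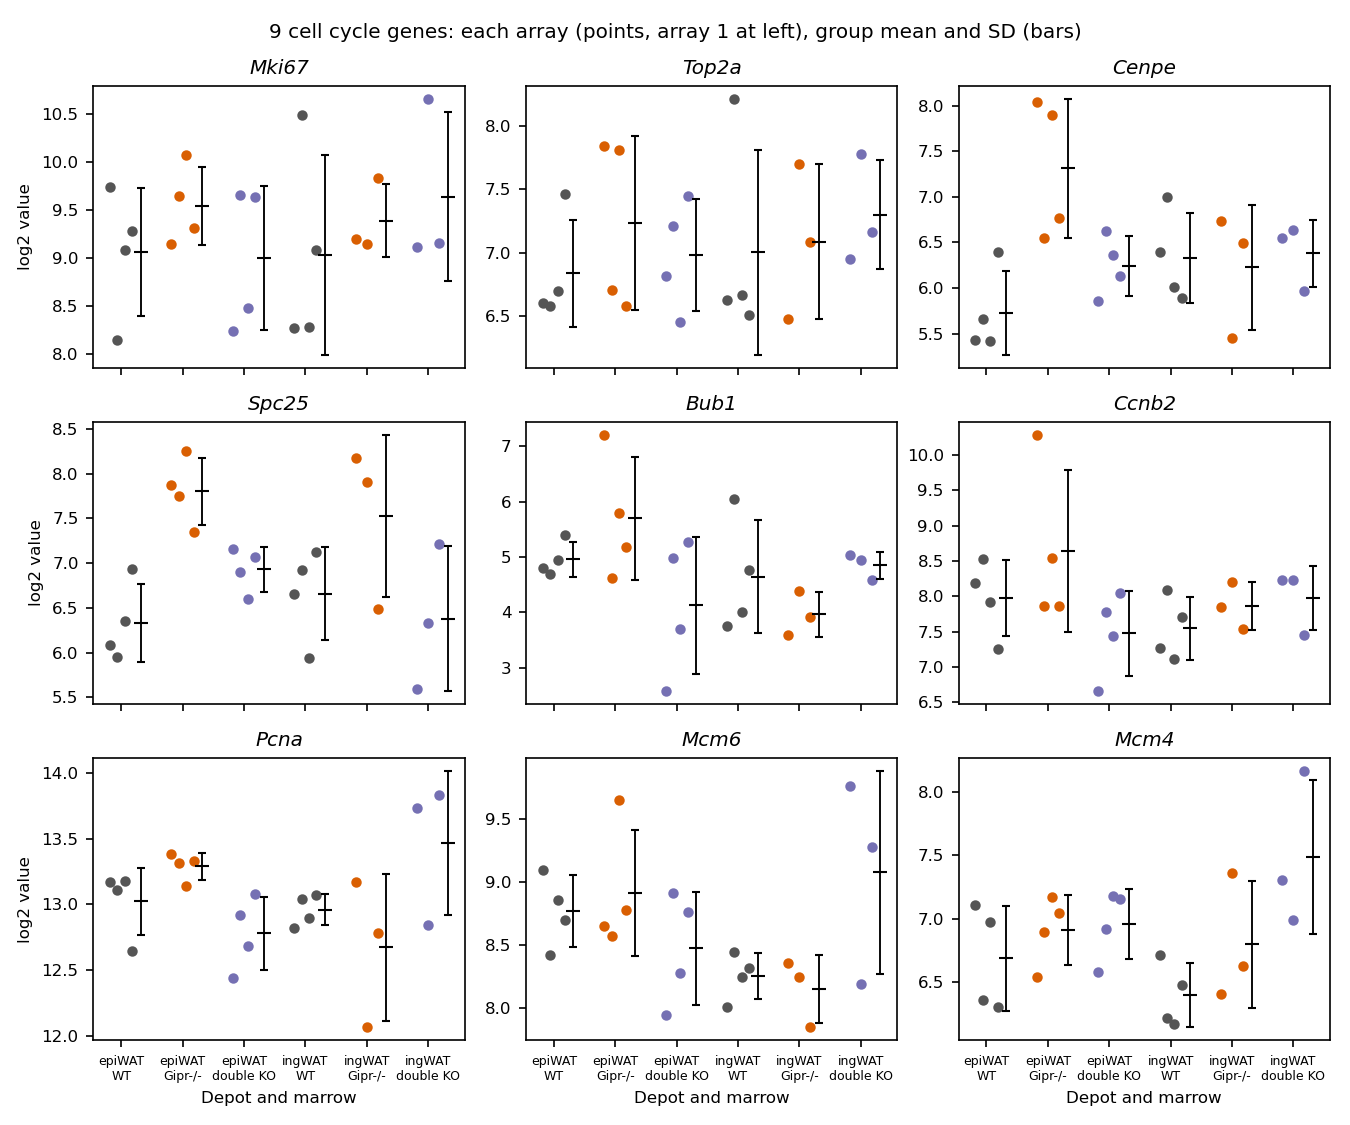
Log2 values (vertical axis) of 9 cell cycle genes in each array, by depot and marrow (horizontal axis). Points are arrays, and bars are group means with SD (n = 4, or 3 for ingWAT with Gipr-/- and double-knockout marrow). Cenpe and Spc25 show Gipr-/- epiWAT arrays all above the WT arrays, and Pcna and Mcm6 show ingWAT double-knockout arrays 1 and 3 above array 2.

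Between double-knockout and Gipr-/- marrow in epiWAT, a comparison that shares the Gipr-/- arrays with the one above, the mitotic genes stood lower with double-knockout marrow. The median was -0.54 over 23 mitotic genes, 21 of them negative, and 0.01 over 10 replication genes. Over all genes the median was -0.00, and 49.7% of genes were positive. None passed (lowest limma adjusted p = 0.303, and 0% of all genes passed). Of 33 members, 9 were lower and 0 higher at an unadjusted p under 0.05 (background 5.45% and 5.28%). Every double-knockout array lay below every Gipr-/- array in 4 members and above in 1 (background 2.91% and 3.14%). Without Gipr-/- array 1 the mitotic median was -0.53 with 6 members lower at that p, and without double-knockout array 1 it was -0.40 with 5. The excess of the mitotic genes was -0.83, 0.15, -0.49 and 0.14 in the double-knockout arrays, so arrays 1 and 3 were low and arrays 2 and 4 were not. Array 1 held the lowest of the 12 values in 11 of 25 mitotic and 5 of 10 replication genes, and array 3 in 7 mitotic genes. The macrophage list stood at -1.74, 0.24, -0.70 and -0.80 in these 4 arrays, against 0.24, 0.71, 1.48 and 0.91 in the Gipr-/- arrays. Its median level ran from 9.43 to 10.81 with double-knockout and from 11.92 to 13.79 with Gipr-/- marrow, and 11 of its 11 tested genes were on the lower side (8 at that p). B cell genes were between -0.65 and -0.22 with double-knockout marrow and on the lower side in 7 of 7 tested genes (median -1.14, 6 at that p). The part of either list in the cell cycle values was not tested.

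The members whose arrays did not overlap here came from different steps of the cycle. Spc25 was at 7.15, 6.90, 6.59 and 7.07 with double-knockout marrow, each below the lowest Gipr-/- value of 7.34. It differed by -0.87 (SE 0.27, limma adjusted p = 0.303). Ccna2, the cyclin of S and G2 phase, was at 6.20, 6.40, 6.82 and 6.45 with Gipr-/- and at 5.11, 6.03, 5.77 and 5.90 with double-knockout marrow. It differed by -0.77 (SE 0.27, limma adjusted p = 0.334), and array 1 was the lowest. Birc5 went from 7.06, 6.48, 6.89 and 6.38 to 5.26, 6.20, 6.37 and 5.82, a difference of -0.79 (SE 0.31, limma adjusted p = 0.384). Its groups parted by a narrow margin, 6.38 against 6.37. Pcna, the only replication gene among the lower ones, was at 13.38, 13.31, 13.14 and 13.33 with Gipr-/- and at 12.44, 12.92, 12.68 and 13.08 with double-knockout marrow. That difference was -0.51 (SE 0.19, limma adjusted p = 0.366). Tyms lay on the other side, at 7.16, 7.72, 7.49 and 7.66 against 7.77, 7.77, 7.84 and 7.73, with a difference of 0.27 (SE 0.22, limma adjusted p = 0.675).

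Larger differences with overlapping arrays were seen in Bub1, Ccnb2, Tpx2, Cenpe and Ndc80. Bub1 was at 7.20, 4.61, 5.79 and 5.18 with Gipr-/- and at 2.58, 4.97, 3.69 and 5.27 with double-knockout marrow. Its extremes were Gipr-/- array 1 and double-knockout array 1, which makes the difference of -1.57 imprecise (SE 0.62, limma adjusted p = 0.399). Without Gipr-/- array 1 it was -1.07. Ccnb2 differed by -1.16 (SE 0.52), and by -0.61 without that array. Tpx2 differed by -1.10, Cenpe by -1.07 and Ndc80 by -1.002 (SE 0.35 to 0.37), and by -0.86, -0.83 and -0.74 without that array. Mki67 was at 8.24, 9.66, 8.47 and 9.63 with double-knockout marrow, a difference of -0.54 (SE 0.41) that follows arrays 1 and 3. Replication genes other than Pcna lay between -0.44 for Mcm6 and 0.47 for Mcm2.

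Double-knockout minus WT marrow in epiWAT lay around 0. The median difference was -0.10 over 33 members (-0.02 over all genes), with 13 positive (47.1% of all genes). The lowest limma adjusted p was 0.999, with 0% of all genes passing. Spc25, at 0.60 (SE 0.27), was the 1 member higher at an unadjusted p under 0.05, and 0 were lower (background 1.44% and 1.62%). In 0 members did the arrays lie apart (background 1.06% higher and 1.27% lower). Bub1 at -0.83 (SE 0.62) and Bub1b at 0.62 (SE 0.45) marked the ends of the range. Without double-knockout array 1, the array highest in epididymis genes, the median was 0.01 with 17 of 34 members positive. The median level of 9 measured epididymis genes was 18.09 in that array, 9.36 in double-knockout 2 and 8.88 in WT 1. In the other epiWAT arrays it ran from 4.21 to 6.39. With these SEs, a p that misses the threshold does not show that the groups are alike.

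In ingWAT, the median difference between Gipr-/- and WT marrow over all members was near that of all genes. The median was 0.06 over 32 members against 0.03 over all genes, with 18 positive (52.8% of all genes). By class it was 0.20 over the mitotic and -0.10 over the replication genes. None passed (lowest limma adjusted p = 0.253), while 0.234% of all genes did. At an unadjusted p under 0.05, 2 members were higher (background 9.94%) and 0 lower (background 5.1%), so the share was below the background. Tyms was at 6.97, 7.61, 7.32 and 7.27 with WT and at 7.48, 8.37 and 8.54 with Gipr-/- marrow, a difference of 0.84 (SE 0.33, limma adjusted p = 0.253). Anln was at 5.33, 4.74, 4.99 and 5.37 with WT and at 5.66, 5.78 and 5.79 with Gipr-/- marrow. Its arrays did not overlap, the 1 such member (background 10.2% higher, and 5.15% lower with 0 members), and it differed by 0.63 (SE 0.27, limma adjusted p = 0.297). Spc25 was at 0.87 (SE 0.49) and Cenpe at -0.10 (SE 0.38). WT array 2 was the highest of the 10 ingWAT arrays in 8 mitotic genes, with Mki67 at 10.49 against 8.27, 8.28 and 9.08 in the other WT arrays. The same array was the highest of ingWAT in the macrophage list, at 0.81 with 11 of 11 genes above their mean, and the part of that list was not tested. Without this array the median over the members was 0.27, and without Gipr-/- array 1 it was 0.15. The mitotic median was 0.50 without WT array 2 and 0.06 without WT array 1.

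Replication genes mostly stood higher in ingWAT with double-knockout marrow, and mitotic genes lay on both sides of 0. Against Gipr-/- marrow the replication median was 0.61, with 7 of 10 positive, and the mitotic median -0.19, with 8 of 22 positive. Over all genes the median was -0.03, with 47.9% positive. No cell cycle gene passed (lowest limma adjusted p = 0.195), while 3.48% of all genes did. At an unadjusted p under 0.05, 2 members were higher and 1 lower (background 7.07% and 11.9%), and the arrays did not overlap in 4 higher and 2 lower members (background 8.35% and 13.9%), which in sum is no larger a share than over all genes. Against WT marrow the replication median was 0.49 and the mitotic median 0.12, and 48.9% of all genes were positive. There 3 members were higher at an unadjusted p under 0.05 and 0 lower (background 7.07% and 6.43%), none passed (lowest limma adjusted p = 0.214), and 0% of all genes passed. The arrays lay apart in 1 higher and 1 lower member (background 5.08% and 5.91%). Both comparisons share the double-knockout arrays.

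These differences went with the 2 arrays that carried lymph node genes. Mcm6 was at 8.01, 8.44, 8.24 and 8.32 with WT, at 8.36, 8.25 and 7.85 with Gipr-/- and at 9.76, 8.19 and 9.27 with double-knockout marrow. Arrays 1 and 3 of double-knockout marrow were above all others and array 2 was among the others. The difference from Gipr-/- marrow was 0.92 (SE 0.37, limma adjusted p = 0.195) and that from WT marrow 0.82 (SE 0.35, limma adjusted p = 0.327). Without arrays 1 and 3 they were 0.04 and -0.06, in a fit that takes the lone array 2 to vary like the other groups. Pcna was at 12.82, 13.04, 12.90 and 13.07 with WT, at 13.17, 12.07 and 12.78 with Gipr-/- and at 13.73, 12.84 and 13.83 with double-knockout marrow, again with array 2 among the other groups. It differed from Gipr-/- marrow by 0.79 (SE 0.32, limma adjusted p = 0.2) and from WT marrow by 0.51 (SE 0.30), and by 0.17 and -0.12 without arrays 1 and 3. In turn, leaving out array 2 carried both genes past the threshold against Gipr-/- marrow (Mcm6 1.37, limma adjusted p = 0.0138, and Pcna 1.11, limma adjusted p = 0.037) and Mcm6 against WT marrow (1.27, limma adjusted p = 0.0263). That fit called 2 of 32 members beside 1382 of 14502 genes against Gipr-/- marrow, and 1 of 32 beside 620 against WT marrow. Neither is a larger share than over all genes.

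Other helicase subunits were less tied to these arrays. Mcm4 was at 6.71, 6.22, 6.17 and 6.48 with WT, at 6.41, 7.36 and 6.63 with Gipr-/- and at 7.30, 6.99 and 8.16 with double-knockout marrow. Every double-knockout array lay above every WT array, array 2 too, and the difference from WT was 1.09 (SE 0.35, limma adjusted p = 0.214). With array 2 alone it was 0.59 (SE 0.46). Mcm3 was at 6.57, 6.28 and 6.92 with double-knockout marrow against 5.92, 5.73 and 6.06 with Gipr-/- marrow, and Mcm5 at 5.94, 5.55 and 5.29 against 5.004, 5.09 and 5.04. Both were apart in all arrays, with differences of 0.69 (SE 0.33) and 0.55 (SE 0.27) that were 0.37 and 0.50 with array 2 alone. The median over the replication genes went from 0.61 to 0.18 against Gipr-/- marrow and from 0.49 to 0.16 against WT marrow when arrays 1 and 3 were left out. In the whole class the excess over the ingWAT mean was 0.47, 0.11 and 0.28 in the double-knockout arrays, between -0.31 and -0.04 with WT and between -0.23 and -0.07 with Gipr-/- marrow. All 3 double-knockout arrays were thus above the other 7, with array 2 the nearest to them. Macrophage genes stood at -1.28, -0.50 and -0.53 in the double-knockout arrays and between 0.24 and 0.59 in the Gipr-/- arrays. They were negative against Gipr-/- marrow in 10 of 11 genes (median -0.92), where 47.9% of all genes were positive. Limma called 2 of them, beside 3.48% of all genes. The part of lymph node or macrophage genes in these values was not tested.

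No single array led the mitotic genes of ingWAT with double-knockout marrow. Their class excess was -0.03, 0.13 and -0.20 in the 3 arrays. Array 2 was the highest of the 10 ingWAT arrays in 5 of 25 mitotic genes (Ccna2, Ccnb2, Kif11, Mki67 and Nusap1), array 1 in Cdc20 and array 3 in Cenpf. Mki67 was highest in double-knockout array 2, at 10.66 against 9.11 and 9.15 in arrays 1 and 3, where lymph node genes were high. Nusap1, a spindle microtubule binder, was at 8.62 in array 2 and at 6.85 and 6.74 in the others. Top2a was at 7.78, against 6.95 and 7.17. In these 3 genes, chosen after their values were seen, the array without lymph node signal was the high one of the group. Bub1, at 5.04, 4.94 and 4.58 with double-knockout and at 3.58, 4.39 and 3.92 with Gipr-/- marrow, was apart in all arrays, with a difference of 0.89 (SE 0.51, limma adjusted p = 0.389). Spc25 differed by -1.14 (SE 0.52, limma adjusted p = 0.26), and Kif20a (-0.74) and Anln (-0.62) were lower in every array. Aurka was lower in every double-knockout than WT array, with a difference of -0.34 (SE 0.32).

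**Figure D3:**
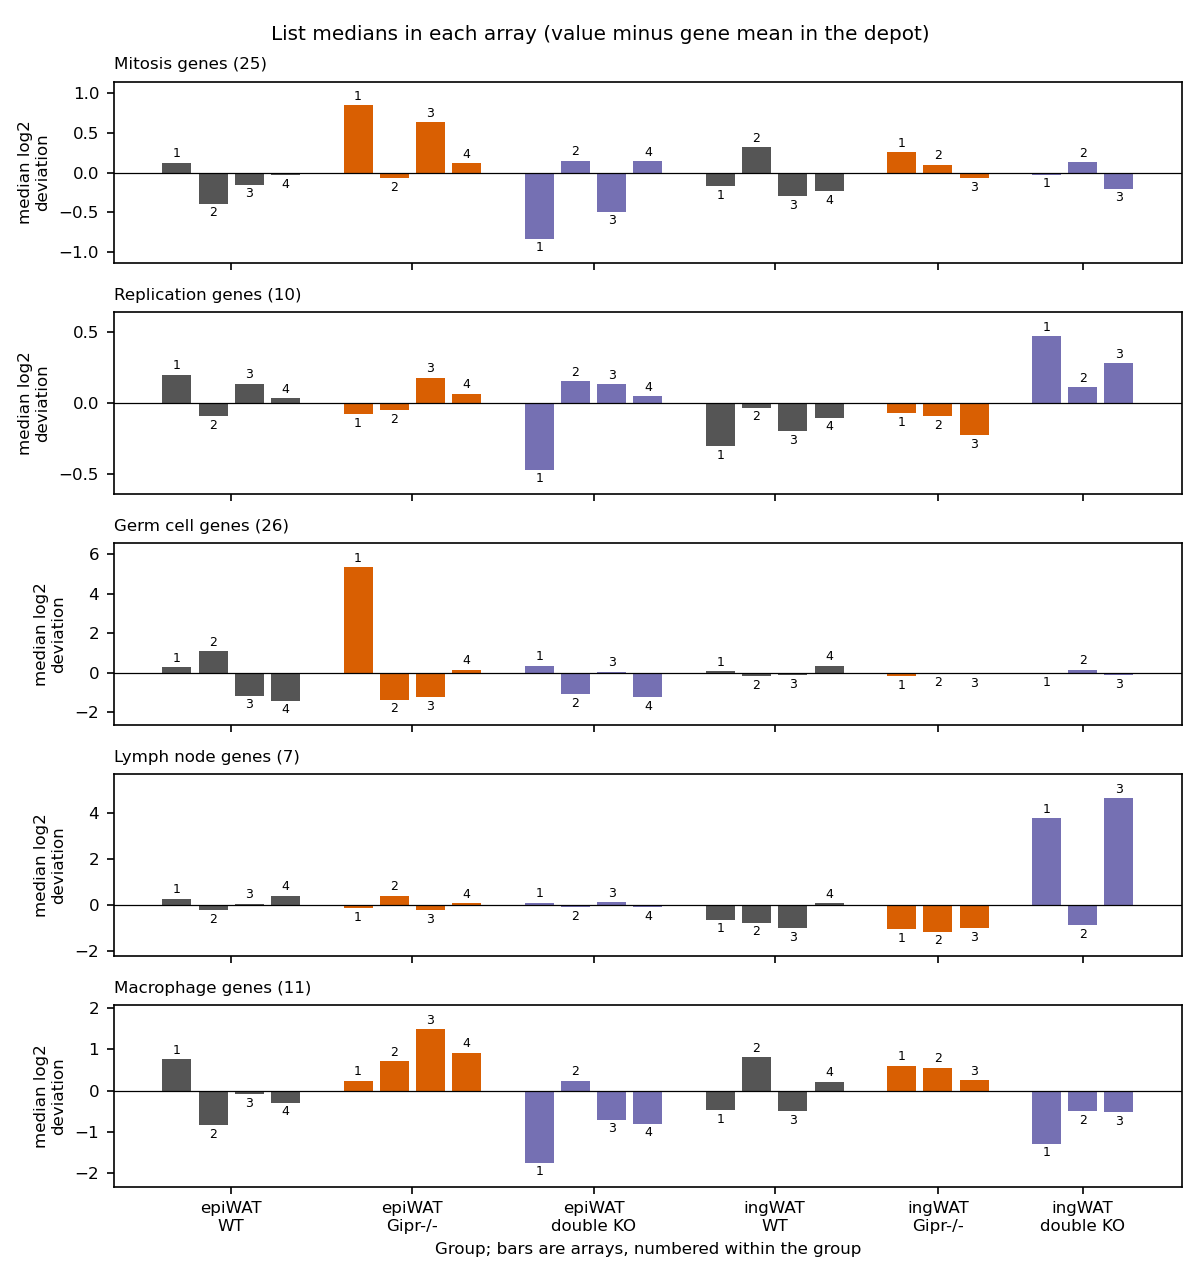
Median log2 distance of each list's genes from their own means in the depot (vertical axis), in each array (bars, by depot and marrow on the horizontal axis), for 25 mitotic, 10 replication, 26 germ cell, 7 lymph node and 11 macrophage genes. The germ cell list peaks in epiWAT Gipr-/- array 1 (5.34) and the lymph node list in ingWAT double-knockout arrays 1 and 3 (3.75 and 4.61), while the cell cycle lists stay between -0.83 and 0.85.

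With WT marrow the median difference between depots was near that of all genes. The median of ingWAT minus epiWAT was -0.06 over 32 members against -0.07 over all genes, with 12 positive (44.1% of all genes). The lowest limma adjusted p was 0.0765, while 1.97% of all genes passed. Anln was the 1 member lower at an unadjusted p under 0.05, with 0 higher (background 9.82% and 6.8%). It was also the 1 whose arrays did not overlap, on the lower side (background 7.27%, and 4.38% on the higher side). It was at 6.63, 5.83, 6.18 and 6.11 in epiWAT and at 5.33, 4.74, 4.99 and 5.37 in ingWAT, a difference of -1.08 (SE 0.31, limma adjusted p = 0.0765). Without ingWAT WT array 2 the median over the members was -0.22, with 6 of 32 positive and 2 lower at that p. With Gipr-/- marrow the median was -0.29 against 0.02 over all genes, with 9 of 32 positive (51.4% of all genes). The lowest limma adjusted p was 0.2, while 0.614% of all genes passed. At an unadjusted p under 0.05, 6 members were lower in ingWAT and 1 higher (background 6.89% and 8.21%), and in 3 all ingWAT arrays were below all epiWAT arrays and in 0 above (background 7.59% and 9.23%). These were Bub1 (-1.73), Ccna2 (-0.78) and Mcm6 (-0.76). Bub1 read 7.20, 4.61, 5.79 and 5.18 in epiWAT and 3.58, 4.39 and 3.92 in ingWAT. Without epiWAT array 1, 3 members were lower at that p. With double-knockout marrow the median was 0.15 against -0.02, with 19 of 32 positive (48.8% of all genes). The lowest limma adjusted p was 0.132, while 3.92% of all genes passed. At an unadjusted p under 0.05, 3 replication genes were higher and 0 members lower (background 9.3% and 11.9%), and in 0 members did the arrays lie apart (background 6.57% higher and 8.95% lower). The 3 were Pcna at 0.69, Mcm3 at 0.77 and Mcm5 at 0.55. Without ingWAT arrays 1 and 3 these were 0.06, 0.46 and 0.51. Without epiWAT array 1, the highest in epididymis genes, the median over the members was 0.0007 with 16 of 32 positive. In that fit 2 members were higher and 2 lower at that p.

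Whether a marrow difference itself differed between depots was tested in a fit of all 22 arrays. For Gipr-/- against WT marrow the difference in epiWAT exceeded that in ingWAT by a median of 0.23 over 32 members (-0.06 over all genes). Positive values were 22 (45.2% of all genes), led by Cenpe at 1.69 (SE 0.55, limma adjusted p = 0.462). None passed, nor did any of the 14502 genes (0%). Of the members, 1 was higher and 1 lower at an unadjusted p under 0.05 (background 2.79% and 5.16%). Without epiWAT Gipr-/- 1 and WT 2 the median was 0.0075, and without ingWAT WT 2 it was 0.07. For double-knockout against Gipr-/- marrow the median was -0.44 against 0.04, with 9 of 32 positive (52.6% of all genes), and 5 members were lower and 0 higher at an unadjusted p under 0.05 (background 6.12% and 7.67%). None passed, while 0.717% of all genes did. Pcna was nearest, at -1.30 (SE 0.36, limma adjusted p = 0.0936), followed by Ccna2 at -1.25 (SE 0.40, limma adjusted p = 0.139). Pcna was lower with double-knockout marrow in epiWAT (-0.51) and higher in ingWAT (0.79). Without ingWAT arrays 1 and 3 its contrast was -0.68. Without array 2 alone it was -1.61 (limma adjusted p = 0.00801), in a fit that called 2 of 32 members beside 543 of 14502 genes. For double-knockout against WT marrow the median was -0.31 against -0.00, with 10 positive (49.6% of all genes) and 3 members lower and 0 higher at that p (background 5.4% and 3.14%). None passed, and 0% of all genes did. Without epiWAT double-knockout array 1 the median was -0.14, and 0 members were lower at that p. With all arrays the 3 were Mcm6 at -1.12, Mcm3 at -0.90 and Pcna at -0.75.

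**Figure D4:**
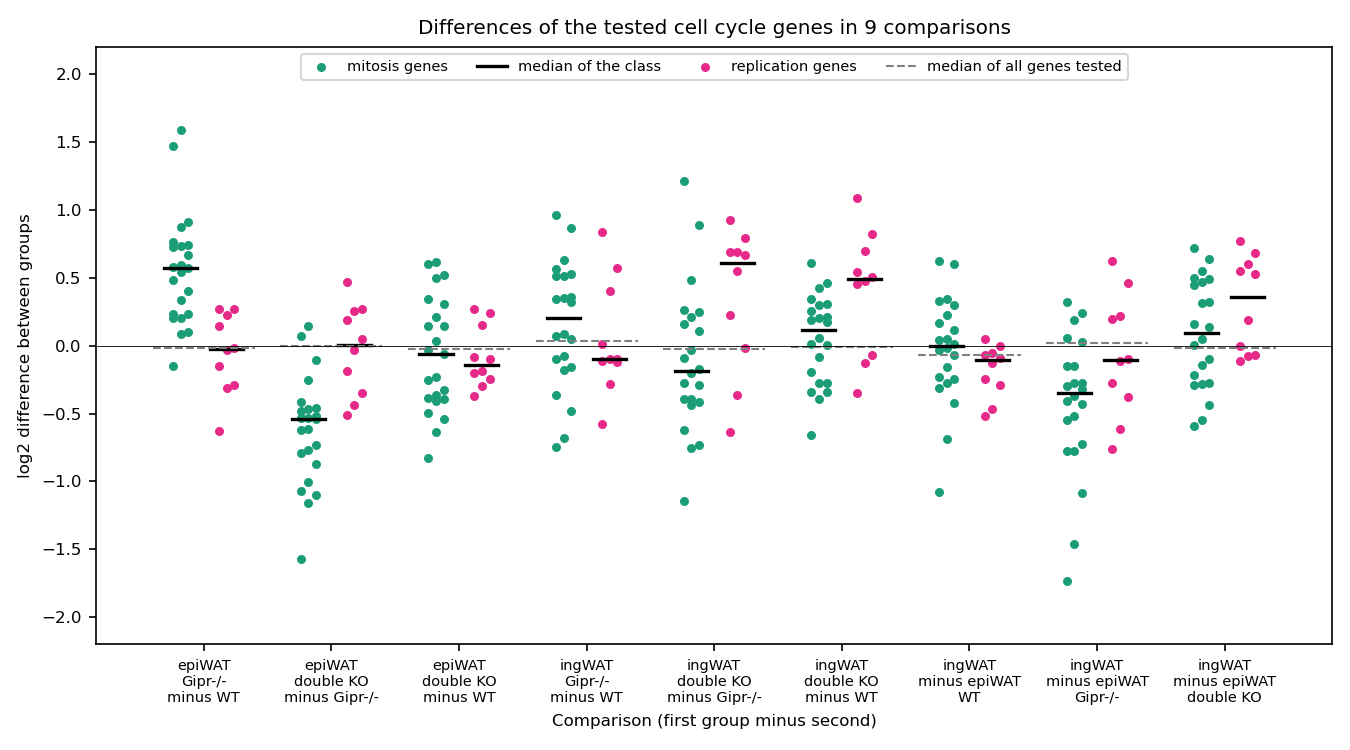
Log2 differences (vertical axis) of the tested mitotic and replication genes in 9 comparisons (horizontal axis). Points are genes, and lines mark the median of each class and of all genes tested. The mitotic medians are 0.57 and -0.54 in the first 2 epiWAT comparisons, and the replication medians 0.61 and 0.49 in the ingWAT comparisons of double-knockout marrow.

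Other cell cycle genes, from lists of general knowledge, were read in the same arrays. These lists too were chosen with earlier results of these data known, so they give no independent support. The genes named are among those with the smallest p-values. Of further mitotic genes, 56 were tested in epiWAT. With Gipr-/- against WT marrow 47 were positive (median 0.39, against 48.2% positive and a median of -0.02 over all genes). This includes Gipr-/- array 1, and values without it were not computed for the further genes. At an unadjusted p under 0.05, 8 were higher and 0 lower (background 3.34% and 3.92%), and limma called 0 (background 0%). Nek2, a centrosome kinase, was at 4.97, 5.29, 5.26 and 5.97 with WT, at 8.83, 6.26, 6.39 and 6.48 with Gipr-/- and at 4.99, 5.29, 5.24 and 5.19 with double-knockout marrow. All 4 Gipr-/- arrays were above the other 8. It differed by 1.62 (SE 0.49, limma adjusted p = 0.554) from WT, and double-knockout from Gipr-/- marrow by -1.81 (SE 0.49, limma adjusted p = 0.249). Smc4, of the condensin complex that compacts chromosomes, differed by 0.99 and -0.98 and was apart in all arrays both times. Double-knockout against Gipr-/- marrow left 44 of the 56 negative (median -0.32, against 49.7% positive and a median of -0.00 over all genes). At that p 11 were lower and 0 higher (background 5.45% and 5.28%), and limma called 0 (background 0%). Of 52 further replication genes in ingWAT, 37 were positive against Gipr-/- marrow (median 0.23, against 47.9% positive and a median of -0.03 over all genes). Limma called 1 of the 52, which is no larger a share than the 3.48% called over all genes. It was Timeless, a replication fork protein that was at 4.51, 4.95 and 4.99 with Gipr-/- and at 6.34, 6.59 and 6.46 with double-knockout marrow. This gene rose by 1.65 (SE 0.35, limma adjusted p = 0.0298), with array 2 as high as the others. Against WT marrow Timeless was at 1.22 (limma adjusted p = 0.155). Of 32 tested cell cycle regulators, limma called 1 in that comparison, a share near the same background of 3.48%. Wee1, the kinase that holds back CDK1, was lower, at 9.44, 9.32 and 9.25 with double-knockout against 10.97, 11.03 and 10.41 with Gipr-/- marrow. Its change was -1.47 (SE 0.27, limma adjusted p = 0.0156).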

How the data were processed

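Total RNA (100 ng) of fat was hybridised to Affymetrix whole-transcript arrays. The authors deposited 1 table of values for all samples, taken here as log2 values from their range (1.92 to 19.9). Partek 6.6 is named in the submitters' processing notes without a role, and the background correction, the normalization and the base of the logarithm are not given in the sources used here. Array medians ran from 6.11 to 6.54, and arrays of a group correlated at 0.911 to 0.984 with 0 identical pairs. The number of arrays limits the precision. Of 21793 features, 19341 had 1 symbol in the platform annotation and 2452 were unnamed. Where a gene had several features the brightest by mean was kept, giving 19337 genes. After the lowest 25% by mean were left out, 14502 genes were fitted with limma 3.58.1 in R 4.3.3 (lmFit and eBayes with trend), per depot for marrow and over all 22 arrays for depots and interactions, with Benjamini-Hochberg adjustment at 0.05 over all of them. The code was tested on simulated data. Replicate numbers follow accession order and pair nothing. The members and gene lists were chosen with earlier results of these data known. All 38 members may be named, of the other cell cycle lists the 3 smallest p-values per direction and comparison, and of the tissue lists the leading genes. Alternatives were other filters, quantile normalization, median centring, no trend, array weights, 1 fit of all arrays, and fewer arrays. Columns of no sample numbered 0.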

Additional observations from a re-analysis of the deposited data

Results flagged for a closer look

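In groups of 4 arrays, the highest or lowest array was compared with the gap that Dixon's test allows. Of 152 such groups of single genes and lists, 10 (6.58%) held an array apart from the others, where chance gives about 1 in 20. Of these, 4 fell in epiWAT double-knockout array 1, the array with the lowest macrophage genes and the highest Gpx5. In it the motor genes Kif11 (5.12) and Kif20a (3.94), the APC/C activator gene Cdc20 (3.57) and the median of the replication genes (-0.47 from their epiWAT mean) were each below the other 3 arrays of the group. Aurka was low, at 5.11, in double-knockout array 3 of epiWAT. With WT marrow in epiWAT, Kif11 was low in array 2 (5.83), Tyms low in array 1 (7.01) and Pcna low in array 4 (12.65), where Top2a was high (7.46). Top2a was also high in WT array 2 of ingWAT (8.22). No member's marrow difference passed the test of a difference between depots (limma).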

How the results depend on the processing

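Most values kept their side of the threshold. Over 214 combinations of comparison and alternative, the median over the members kept within its spread in 210 and moved in 4, and the count of members called stayed at 0 in 205 and rose in 9. Array weights called 2 members between double-knockout and Gipr-/- marrow in ingWAT (Mcm6 and Pcna, lowest limma adjusted p = 0.0252) and 2 in the depot test of that contrast (lowest 0.0136), whose member median was -0.15. They also called 1 between depots with WT marrow (Anln, 0.0194), 1 with Gipr-/- marrow (Ccna2, 0.0439) and 1 with double-knockout marrow (Pcna, 0.0469). Of all 14502 genes, the weights called 1797, 927, 791, 623 and 1187 in these comparisons, in the order given. The share of the 32 members was larger in none of them. For double-knockout minus WT marrow in ingWAT the weights gave a member median of -0.0178. Leaving out each array in turn gave 0 to 2 members called between double-knockout and Gipr-/- marrow in ingWAT and in its depot test, and 0 to 1 against WT marrow and between depots with double-knockout marrow. The higher counts came without ingWAT double-knockout array 2. Of all 14502 genes, that step called 1382, 543, 620 and 797 in these comparisons, in the order given. The ingWAT member median ran from 0.0001 to 0.27 for Gipr-/- minus WT (0.27 without WT 2) and from 0.0276 to 0.31 for double-knockout minus WT marrow (0.0276 without WT 3). Without ingWAT double-knockout arrays 1 and 3, chosen after seeing the data, Mcm6 turned to -0.0618 against WT marrow. The cause was not tested. Counts over all genes moved more, between 0 and 1797 beside 505 for double-knockout minus Gipr-/- marrow in ingWAT, 0 and 401 beside 34 for Gipr-/- minus WT, and 0 and 620 beside 0 for double-knockout minus WT. Centring arrays moved the median of all genes between depots with Gipr-/- marrow from 0.02 to 0.16, and the members' from -0.29 to -0.14. No paired analysis was possible because the labels give no replicate numbers shared between groups.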

Other observations

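Sycp3, a gene of the meiotic chromosome axis that was counted with the germ cell list, did not follow the median of that list. In epiWAT it was at 10.62, 7.91, 9.20 and 9.41 with WT marrow, at 11.91, 12.38, 12.64 and 12.04 with Gipr-/- marrow and at 6.58, 10.60, 9.42 and 10.9995 with double-knockout marrow. All 4 Gipr-/- arrays were above the other 8. The median excess of the germ cell list over its epiWAT mean was 5.34, -1.36, -1.23 and 0.15 in these 4 arrays, and 1.09 in WT 2. The difference from WT marrow was 2.96 (SE 0.83, limma adjusted p = 0.504) and that of double-knockout from Gipr-/- marrow -2.84 (limma adjusted p = 0.28). In ingWAT Sycp3 was at 8.45, 8.55, 8.16 and 11.07 with WT, at 10.62, 12.44 and 10.14 with Gipr-/- and at 7.84, 9.27 and 9.39 with double-knockout marrow, with differences of 2.01 (limma adjusted p = 0.221) and -2.23 (limma adjusted p = 0.137). None passed the threshold.

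Between depots with double-knockout marrow, limma called 3 of 52 further replication genes higher in ingWAT and 0 lower, and 1 of 32 cell cycle regulators higher and 0 lower, beside 3.92% of all genes called in either direction. Timeless was higher in ingWAT by 1.64 (SE 0.30, limma adjusted p = 0.00686), E2f2, an activating E2F factor, by 1.54 (SE 0.30, limma adjusted p = 0.00832), Cdt1, which loads the MCM helicase, by 1.35 (SE 0.29, limma adjusted p = 0.0144), and Rpa1, which coats single-stranded DNA, by 1.01 (SE 0.26, limma adjusted p = 0.0319). E2f2 was at 6.14, 6.08 and 5.86 in the 3 ingWAT arrays, so array 2 was not apart. Cdt1 was at 7.79, 6.53 and 7.68, with array 2 the lowest. The marrow difference of Timeless, double-knockout minus Gipr-/-,, taken as epiWAT minus ingWAT, differed by -2.19 (SE 0.43, limma adjusted p = 0.0264).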
